A study of Mus musculus with 36 samples.

Results

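The genes Card10, Card9, Card14, Bcl10 and Malt1 were examined in the hippocampus and cerebellum of adult mice with 2, 1 or 0 intact Pogz alleles in the nervous system. These 5 genes were found by name among the 24421 genes of the count tables. Card10 was chosen by its change in CPM per Pogz allele, because its level fell in the hippocampus and less in the cerebellum, so its genotype values are given below as a description without a test. All mice were C57Bl/6, and each genotype had 3 males and 3 females. Controls were Pogzfl/fl without Cre, cKO+/- mice were NesCre/+; Pogzfl/+, and cKO-/- mice were NesCre/+; Pogzfl/fl. A block of Pogz exons lay between loxP sites, and Cre was driven by Nestin, which is active in neural precursors. Because no control carried Cre, an effect of Cre and an effect of the deletion cannot be told apart in comparisons with controls, while cKO+/- and cKO-/- mice both carried it. Both tissues of the same 18 animals were sequenced as poly(A) RNA, giving 36 libraries.

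CARD-BCL10-MALT1 complexes pass signals from receptors at the cell surface to the transcription factor NF-kB. A scaffold with a caspase recruitment domain (CARD) is phosphorylated by a protein kinase, nucleates filaments of the adaptor BCL10 and so recruits MALT1, which is both a platform for ubiquitin ligases and a protease. The scaffold differs between cells. CARD10 (also called CARMA3) acts downstream of G protein-coupled receptors and growth factor receptors in non-immune cells, CARD9 acts in myeloid cells downstream of C-type lectin receptors, and CARD14 is best known from keratinocytes.

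Card10 lies on the minus strand of chromosome 15 (78775136 to 78803042, 21 exons, 4728 exonic bases). Card9 lies on the minus strand of chromosome 2 (26352312 to 26359547, 12 exons, 1611 exonic bases). Card14 lies on the plus strand of chromosome 11 (119314787 to 119345375, 22 exons, 3958 exonic bases), and Bcl10 on the plus strand of chromosome 3 (145924262 to 145934364, 3 exons, 1957 exonic bases). Malt1 has 16 exons and 5008 exonic bases. The positions are those of the count tables and correspond to GRCm38. Card14 shared exonic bases with Sgsh on the opposite strand, and since the use of strand in counting is not stated, reads from that overlap cannot be told apart. No other member shared exonic bases with another gene.

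The 250 bases before the start of Card10, which fell, and of Bcl10, the shared adaptor, are shown to set side by side the start regions of a scaffold and of its partner. They were taken from RefSeq (GRCm38.p6), whose starts for both genes coincide with those of the count tables. Capitals mark the GC box, GGGCGG on either strand.
Card10, chr15:78803043-78803292, minus strand: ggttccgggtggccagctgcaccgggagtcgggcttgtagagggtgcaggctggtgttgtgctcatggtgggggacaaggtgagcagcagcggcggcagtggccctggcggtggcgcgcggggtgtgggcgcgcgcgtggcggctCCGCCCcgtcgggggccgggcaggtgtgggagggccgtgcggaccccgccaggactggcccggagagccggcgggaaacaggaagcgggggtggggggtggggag
Bcl10, chr3:145924012-145924261, plus strand: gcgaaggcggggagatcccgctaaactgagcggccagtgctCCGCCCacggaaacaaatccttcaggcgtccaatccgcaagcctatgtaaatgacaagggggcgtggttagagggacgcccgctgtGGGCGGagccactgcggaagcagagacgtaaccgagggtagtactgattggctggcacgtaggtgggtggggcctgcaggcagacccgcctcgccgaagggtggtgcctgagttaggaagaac
The Card10 window was 76.0% G or C with 25 CpG dinucleotides, and the Bcl10 window was 62.4% G or C with 19. Over 32817 such windows the medians were 52.4% and 6. Card10 held 1 GC box and Bcl10 held 2, and 32.7% of all windows held at least 1. The letters CCAAT, on either strand, were found 2 times in the Bcl10 window and not in that of Card10, and were present in 33.8% of all windows. The letters TATAAA were in neither window, against 12.4% of all. A match to the NF-kB site consensus was found once in the Bcl10 window and not in that of Card10, and 3.9% of all windows held one. These matches are descriptions of letters and not of bound sites.

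Libraries held 17609321 to 45544188 counts in the hippocampus and 21421850 to 32544929 in the cerebellum. The hippocampal cKO-/- library of Sample_1160 stood apart, with a median Spearman correlation of 0.896 to the other hippocampal libraries, where the others had 0.984 to 0.994. It was left out of the hippocampal values unless stated, so that this group holds 5 libraries. Markers of hippocampal neurons summed to 811 to 1220 CPM (counts scaled to the library total) in control hippocampus and 65.2 to 105 CPM in control cerebellum, and markers of cerebellar neurons to 179 to 524 CPM and 6200 to 7920 CPM. Choroid plexus markers ranged from 30.5 to 5010 CPM among hippocampal controls. Pogz itself, counted over the whole gene, averaged 93.7 ± 1.28 CPM in control hippocampus (SD, n = 6), 78.5 ± 2.38 CPM in cKO+/- (SD, n = 6) and 63.2 ± 3.75 CPM in cKO-/- (SD, n = 5). In the cerebellum it averaged 96.3 ± 13.02, 75.5 ± 5.77 and 64.3 ± 7.44 CPM (SD, n = 6 each). In bulk tissue, fewer cells of a type and less RNA per cell cannot be told apart.

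In mice with intact Pogz, the scaffolds were higher in the hippocampus and their partners were higher in the cerebellum. Per kilobase of exon, control hippocampus held 5.96 ± 0.308 CPM of Bcl10, 2.33 ± 0.390 of Card9, 2.01 ± 0.357 of Malt1, 1.995 ± 0.308 of Card10 and 0.253 ± 0.0234 of Card14 (SD, n = 6). Control cerebellum held 8.32 ± 0.571 CPM per kilobase of Bcl10, 3.21 ± 0.776 of Malt1, 1.47 ± 0.485 of Card9, 1.06 ± 0.242 of Card10 and 0.155 ± 0.0278 of Card14 (SD, n = 6). Bcl10 was thus the most abundant member and Card14 the least in both tissues. The log2 difference of hippocampus minus cerebellum was 0.92 for Card10 (SE 0.16). No test is given for it, because these control values entered the choice of Card10. The difference was 0.66 for Card9 (SE 0.19, adjusted p = 0.00685, edgeR quasi-likelihood test). It was -0.48 for Bcl10 (SE 0.06, adjusted p = 9.1e-06) and -0.68 for Malt1 (SE 0.14, adjusted p = 0.000754). Card9, Bcl10 and Malt1 passed the test, where 71.9% of 14224 genes did. Card14 did not pass the filter on low counts. Fitted among all genes with at least 1 count, it was higher in the hippocampus by 0.69 (SE 0.19, adjusted p = 0.00475, edgeR), where 58.5% of 20616 genes passed.

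Card10 had its highest level in control hippocampus and declined with each Pogz allele lost. The 6 controls ranged from 7.94 to 11.6 CPM with a median of 9.19, and the 6 cKO+/- libraries from 5.69 to 8.24 CPM with a median of 6.24. The 5 cKO-/- libraries were at 3.89, 3.93, 3.94, 4.40 and 4.52 CPM. Every cKO-/- library lay below every cKO+/- and control library, while 1 cKO+/- library, at 8.24 CPM, lay within the control range. The share of all genes whose groups separate in this way is not given here. The means were 9.43 ± 1.46 CPM (SD, n = 6), 6.49 ± 0.891 CPM (SD, n = 6) and 4.14 ± 0.300 CPM (SD, n = 5), so that cKO+/- stood at 68.8% and cKO-/- at 43.9% of the control mean. The log2 change per allele lost was -0.58 (SE 0.06), and -0.60 with the library of Sample_1160, which was at 3.77 CPM. Of the 14339 genes tested in the hippocampus, 4.44% passed the test, a share from which nothing is read for Card10. The cKO+/- mean departed from the midpoint of the other genotypes by a log2 difference of 0.05 (SE 0.10), with an interval of -0.15 to 0.25. An edgeR test of this departure called no gene (0% of 14339), and nothing is read from it for Card10. Unadjusted, 1425 genes had a p under 0.05 in it, and DESeq2 called 12.

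**Figure D1:**
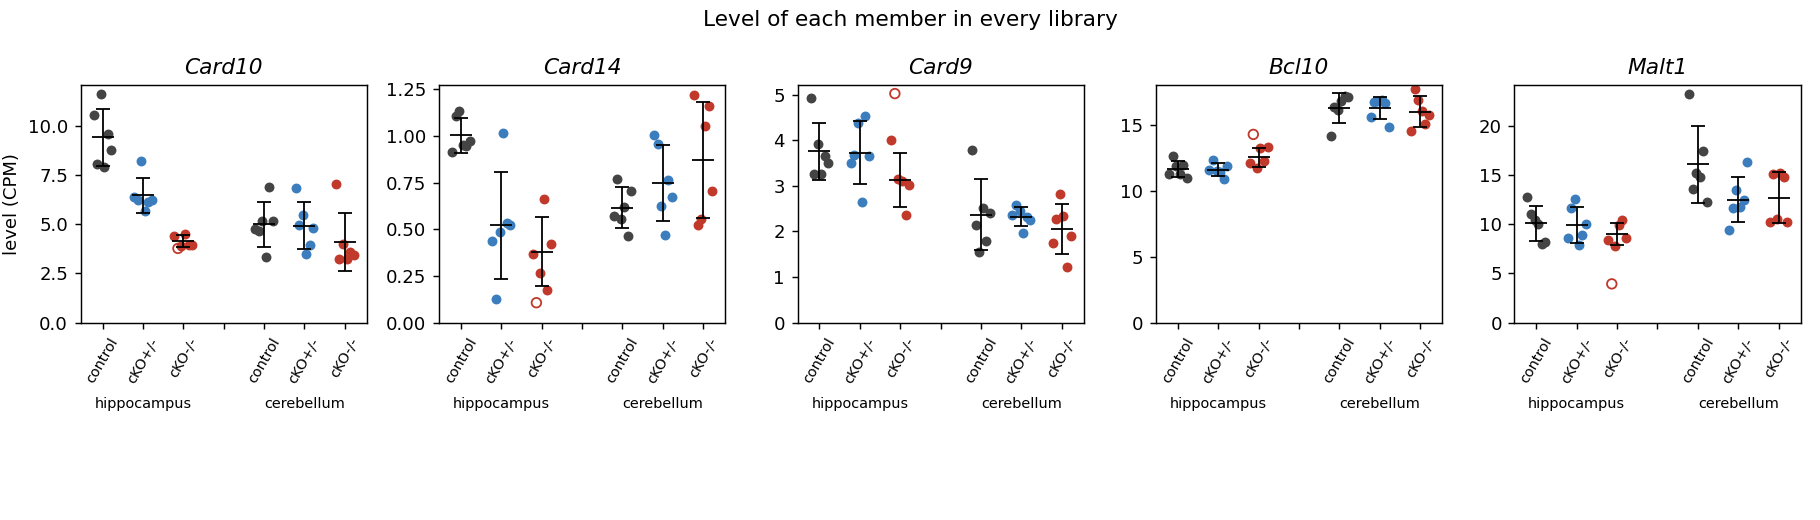
Level of each member in CPM, normalised over all 36 libraries, by genotype in hippocampus and cerebellum. Points are libraries, bars are the mean ± SD, and the open circle is the hippocampal library of Sample_1160, which is outside the mean. Hippocampal Card10 steps down from 7.94 to 11.6 CPM in controls to 3.89 to 4.52 CPM in cKO-/-, while the cerebellar groups overlap.

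In the cerebellum the Card10 groups overlapped. Controls ranged from 3.35 to 6.89 CPM with a median of 4.96, cKO+/- from 3.51 to 6.84 CPM with a median of 4.91, and cKO-/- from 3.24 to 7.05 CPM with a median of 3.51. The means were 5.003 ± 1.14, 4.93 ± 1.18 and 4.10 ± 1.48 CPM (SD, n = 6 each). In cKO-/-, 5 of the libraries were at 4.02 CPM or below and Sample_936 was at 7.05 CPM. The log2 change per allele was -0.15 (SE 0.10) and was -0.24 without Sample_936. The hippocampal change minus the cerebellar one was -0.44 (SE 0.12). The mean level in hippocampal cKO-/-, 4.14 CPM, lay beside the cerebellar means, and of the 6 group means in order each overlapped the next in range. The midpoint test called 0.0214% of 14027 genes in the cerebellum. Card10 departed from the midpoint by 0.13 there (SE 0.17), given as a description without a test.

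Card14, the second scaffold to be low in hippocampal cKO-/-, was near the limit of detection. Controls held 0.912 to 1.13 CPM (28 to 51 counts) with a median of 0.961, and cKO+/- held 0.127 to 1.02 CPM with a median of 0.503. The cKO-/- libraries were at 0.176, 0.267, 0.369, 0.419 and 0.663 CPM (3 to 16 counts), all below every control. For this separation too, the share over all genes is not given here. The means were 1.003 ± 0.0925 CPM (SD, n = 6), 0.521 ± 0.286 CPM (SD, n = 6) and 0.379 ± 0.184 CPM (SD, n = 5). The difference of cKO-/- minus control was -0.624 CPM (exact permutation test, 2-sided, p = 0.00433, which is the lowest value possible with 6 against 5 libraries), and with Sample_1160 it was -0.669 CPM (p = 0.00216, exact permutation). Among all genes with at least 1 count, of which 3.21% of 21089 passed, Card14 decreased by 0.72 in log2 units for each allele lost (SE 0.17, adjusted p = 0.0222, edgeR). Without Sample_1379 the change was -0.66 and missed the threshold (adjusted p = 0.0645).

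In the cerebellum the Card14 groups overlapped. Controls held 0.463 to 0.772 CPM, cKO+/- 0.468 to 1.01 CPM and cKO-/- 0.525 to 1.22 CPM, with medians of 0.596, 0.717 and 0.878. The difference of cKO-/- minus control was 0.255 CPM (2-sided exact permutation test, p = 0.115), and the log2 change was 0.24 per allele (SE 0.13, adjusted p = 0.258, edgeR), where 9.27% of 20443 genes passed. The hippocampal change minus the cerebellar one was -0.97 (SE 0.21, adjusted p = 0.0114, edgeR), in a test that 1.65% of 14852 genes passed. Card14 entered that test with 6 libraries above 1 CPM, the lowest number accepted, of which 2 were hippocampal controls, 1 was cerebellar cKO+/- and 3 were cerebellar cKO-/-, the groups in which it was high. Fitted among all genes with at least 1 count, a setting chosen after seeing the data, the difference was -0.96 (SE 0.21, adjusted p = 0.0161, edgeR), where 0.962% of 21423 genes passed. Sgsh, which shares exonic bases with Card14, had a log2 change of 0.05 in the hippocampus (SE 0.06, adjusted p = 0.648) and 0.06 in the cerebellum (SE 0.04, adjusted p = 0.399).

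The numbers of all control animals ran from Sample_1129 to Sample_1192. The range used here, Sample_1120 to Sample_1219, took in these, while 3 cKO+/- and 4 cKO-/- animals had numbers outside it. Its ends were the cKO+/- animal Sample_1120 and the cKO-/- animal Sample_1219, whose numbers lay outside those of the controls. What the numbers stand for is not stated. Within the range, Card10 in the hippocampus was at 7.94 to 11.6 CPM in controls, 5.69 to 8.24 CPM in 3 cKO+/- animals and 3.89 CPM in the 1 cKO-/- animal. The values of 8.24 and 3.89 CPM were those of Sample_1120 and Sample_1219. No cKO-/- library in the hippocampal values thus had a number among those of the controls. With a term for the range, the log2 change of Card10 was -0.58 in the hippocampus (SE 0.08), -0.25 in the cerebellum (SE 0.12) and -0.34 for the difference (SE 0.15). Card14 moved more. Its hippocampal cKO+/- libraries were at 0.483 to 1.02 CPM within the range and 0.127 to 0.523 CPM outside it, and its cerebellar cKO-/- libraries at 0.525 to 0.556 CPM within and 0.704 to 1.22 CPM outside. With the term, its change was -0.52 in the hippocampus (adjusted p = 0.707), 0.00 in the cerebellum (adjusted p = 0.997) and -0.54 for the difference (adjusted p = 0.9995, edgeR), so both Card14 calls ended.

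**Figure D2:**
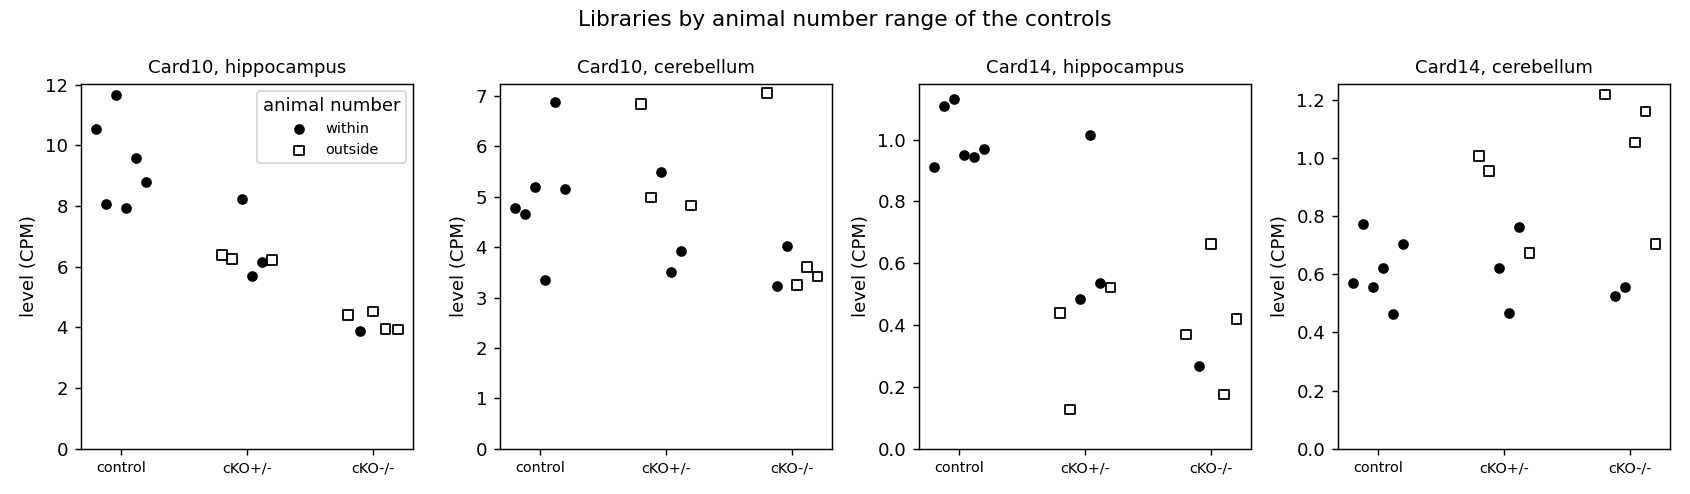
Level of Card10 and Card14 in CPM for each library, by genotype. Filled circles are animal numbers within the range Sample_1120 to Sample_1219, and open squares are those outside it. The library of Sample_1160 is left out of the hippocampal panels. Cerebellar Card14 in cKO-/- lies at 0.525 to 0.556 CPM within the range and 0.704 to 1.22 CPM outside it.

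Card9, the myeloid scaffold, passed the genotype test in neither tissue. Hippocampal controls ranged from 3.26 to 4.93 CPM with a median of 3.58, cKO+/- from 2.64 to 4.54 CPM with a median of 3.66, and the cKO-/- libraries were at 2.35, 3.01, 3.11, 3.15 and 4.01 CPM. The log2 change per allele was -0.12 (SE 0.08, interval -0.29 to 0.05, adjusted p = 0.420, edgeR) in the hippocampus and -0.11 (SE 0.11, interval -0.33 to 0.11, adjusted p = 0.502) in the cerebellum. Sample_1160 had the highest hippocampal Card9, 5.02 CPM, and with it the hippocampal change was -0.05. The hippocampal change was also nearer to 0 without Sample_1379, at -0.07, and the cerebellar one was -0.01 without the control Sample_1129. The sum of 10 microglia markers was 398 to 534 CPM in control and 419 to 495 CPM in cKO-/- hippocampus, and 723 CPM in Sample_1160. None of these markers was called in the hippocampus, and 4 of 10 rose in the cerebellum, where 13.7% of all genes were called and the sum was 145 to 155 CPM in controls and 144 to 265 CPM in cKO-/-. With the term for animal numbers, 0 of these 4 were called and all 4 kept their direction. The part of microglia in the Card9 values was not tested.

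Bcl10, the adaptor that every scaffold engages, passed the genotype test in neither tissue. It averaged 11.7 ± 0.602 CPM in control (SD, n = 6), 11.6 ± 0.482 CPM in cKO+/- (SD, n = 6) and 12.5 ± 0.709 CPM in cKO-/- hippocampus (SD, n = 5). In the cerebellum the means were 16.3 ± 1.12, 16.3 ± 0.823 and 15.99 ± 1.15 CPM (SD, n = 6 each). The groups overlapped in both tissues. The log2 change was 0.06 in the hippocampus (SE 0.03, interval -0.01 to 0.12, adjusted p = 0.313, edgeR) and -0.02 in the cerebellum (SE 0.03, interval -0.09 to 0.05, adjusted p = 0.712). Every cerebellar genotype mean was above every hippocampal one, and the cerebellar and hippocampal ranges did not overlap between the neighbouring groups of that order. The hippocampal library of Sample_1160, left out here, was at 14.3 CPM, above the cerebellar control Sample_1129 at 14.2 CPM.

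Malt1, the protease, passed the genotype test in neither tissue. Cerebellar controls ranged from 12.3 to 23.2 CPM with a median of 15.0, cKO+/- from 9.45 to 16.3 CPM with a median of 12.1, and cKO-/- from 10.2 to 15.2 CPM with a median of 12.7. The log2 change was -0.18 (SE 0.08, interval -0.35 to -0.01, unadjusted p = 0.0399, adjusted p = 0.143, edgeR), and without the control Sample_1129 it was -0.10. In the hippocampus the means were 10.1 ± 1.79 CPM (SD, n = 6), 9.92 ± 1.86 CPM (SD, n = 6) and 9.01 ± 1.12 CPM (SD, n = 5), with a log2 change of -0.06 (SE 0.06, interval -0.19 to 0.07, adjusted p = 0.608). Sample_1160 had 3.93 CPM, the lowest Malt1 value of any library, and with it the change was -0.15 (adjusted p = 0.422).

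**Figure D3:**
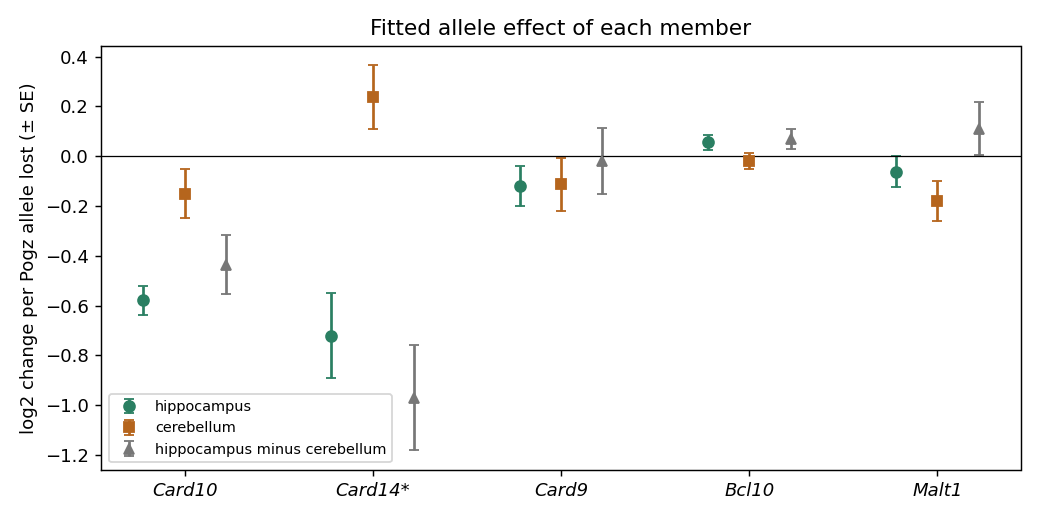
Fitted log2 change per Pogz allele lost (± SE) for each member in the hippocampus, in the cerebellum and as the difference of both. Card14, starred, is fitted among all genes with at least 1 count in the single tissues. Card10 and Card14 lie at -0.58 and -0.72 in the hippocampus, and the other members lie between -0.18 and 0.06 in both tissues.

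Card9, Bcl10 and Malt1 thus passed the genotype test in neither tissue, where 4.44% of hippocampal and 13.7% of 14027 cerebellar genes passed, and a missed threshold does not show that a level stayed the same. The tissue difference was -0.02 for Card9 (SE 0.13, adjusted p = 0.969), 0.07 for Bcl10 (SE 0.04, adjusted p = 0.464) and 0.11 for Malt1 (SE 0.11, adjusted p = 0.692, edgeR). None of Card10, Card9, Bcl10 and Malt1 was called for sex, in a test that called 0.907% of hippocampal and 0.0499% of cerebellar genes. Card14 did not pass the filter for that test. The log2 difference of males minus females for Card10 was -0.09 in the hippocampus (SE 0.09, adjusted p = 0.658) and 0.32 in the cerebellum (SE 0.16, unadjusted p = 0.0576, adjusted p = 0.9999). For Malt1 in the hippocampus it was -0.23 (SE 0.10, unadjusted p = 0.0310, adjusted p = 0.257).

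The wider pathway was described by 6 lists holding 88 genes. In the hippocampus 72 were tested, of which 1 rose and 1 fell (2.78%, against 4.44% of all tested genes). The median log2 change was 0.00, as over all genes. In the cerebellum 70 were tested, of which 7 rose and 4 fell (15.7%, against 13.7% of all tested genes). The median was 0.03, against 0.00 over all genes. Counts of called genes per list below stand against the same shares of 4.44% and 13.7%. With the term for the animal number range, 0 of the 2 hippocampal and 1 of the 11 cerebellar calls held, and each of them kept its direction.

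Upstream of the scaffolds, 1 of 18 receptors and kinases was called in the hippocampus. Prkcd, a protein kinase C, fell there by 0.44 on the log2 scale (SE 0.12, adjusted p = 0.0384), from a mean of 37.8 CPM in controls to 21.0 CPM in cKO-/-, a call that was lost in 8 of 17 fits leaving out 1 animal (Sample_933, Sample_1129, Sample_1155, Sample_1190, Sample_1192, Sample_1219, Sample_1371 or Sample_1379). In the cerebellum 4 of 17 rose: the lysophosphatidic acid receptor genes Lpar1 (0.32, SE 0.06, adjusted p = 0.0027) and Lpar4 (0.40, SE 0.10, adjusted p = 0.0135), the growth factor receptor gene Egfr (0.22, SE 0.05, adjusted p = 0.0123) and Gna12, a G protein subunit named after its values were seen (0.15, SE 0.05, adjusted p = 0.0465). Lpar1 changed by 0.26 in the hippocampus (SE 0.07, adjusted p = 0.0543).

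Downstream, 0 of 17 ubiquitin ligases and kinases were called in the hippocampus, with log2 changes from -0.08 to 0.22, and 1 of 17 in the cerebellum. There Ikbkb, the IkB kinase subunit beta, fell by 0.14 (SE 0.04, adjusted p = 0.0347), a call lost when Sample_936, Sample_1120, Sample_1129, Sample_1155, Sample_1190, Sample_1379 or Sample_1385 was left out. The ligase gene Traf6, which binds MALT1, was at 0.01 in the hippocampus (SE 0.03, adjusted p = 0.956, edgeR) and 0.00 in the cerebellum. None of 9 NF-kB and IkB genes was called in either tissue, and their log2 changes ran from -0.06 to 0.04 in the hippocampus and -0.09 to 0.20 in the cerebellum. Of the genes for proteins that MALT1 cleaves, 0 of 10 were called in the hippocampus and 1 of 9 in the cerebellum, Map3k14, which fell by 0.11 (adjusted p = 0.0499) and lost the call in 16 of 18 fits leaving out 1 animal. Of NF-kB target genes, 0 of 11 were called in the hippocampus, with a median of 0.13, and in the cerebellum Tnip1 fell by 0.12 (SE 0.03, adjusted p = 0.0186) and Sod2 rose by 0.12 (SE 0.04, adjusted p = 0.0319), the first call being lost without Sample_1385 and the second without Sample_936, Sample_1129, Sample_1190, Sample_1371 or Sample_1385.

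Among other CARD-domain genes, 1 of 14 rose in the hippocampus and 2 rose and 1 fell in the cerebellum. Casp1, the protease of inflammasomes, rose by 0.81 in the hippocampus (SE 0.14, adjusted p = 0.00263), from 1.53 to 4.47 CPM, and by 1.25 in the cerebellum (SE 0.10), from 2.37 to 13.6 CPM. Pycard, the inflammasome adaptor, rose by 0.32 in the cerebellum (SE 0.09, adjusted p = 0.0299; lost without Sample_1170, Sample_1172, Sample_1192, Sample_1379 or Sample_1385). Birc2, an inhibitor of apoptosis, fell there by 0.11 (SE 0.03, adjusted p = 0.0270; lost without Sample_936, Sample_1129, Sample_1172, Sample_1190, Sample_1379 or Sample_1385).

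**Figure D4:**
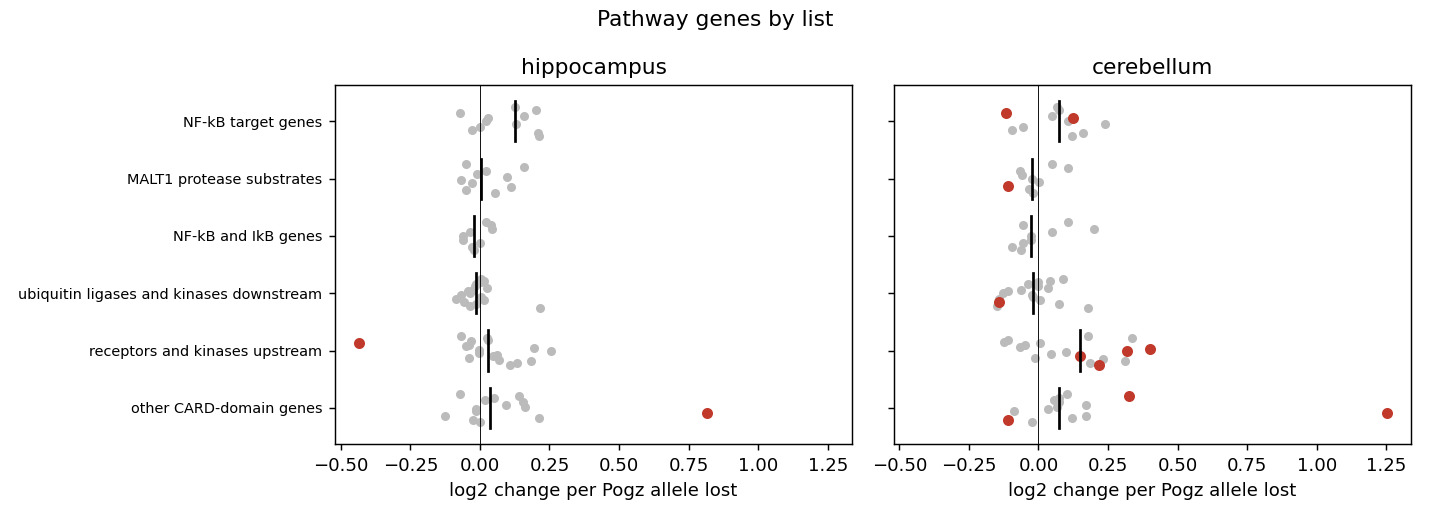
Log2 change per Pogz allele lost of each tested pathway gene, by list, in hippocampus and cerebellum. Red points passed the test across all genes, grey points did not, and black lines are medians. Casp1 is the highest point in both panels, at 0.81 and 1.25.

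Markers of other cells moved with genotype beside Card10, where 4.44% of all tested genes were called in the hippocampus and 13.7% in the cerebellum. In the hippocampus 4 of 10 endothelial markers rose, namely Tek, Cdh5, Kdr and Pecam1 (log2 changes 0.27 to 0.33), and the summed level was 148 to 170 CPM in controls and 166 to 261 CPM in cKO-/-, the opposite direction to Card10. In the cerebellum none of the 10 passed, with sums of 237 to 308 CPM in controls and 243 to 325 CPM in cKO-/-. None of the 4 hippocampal calls held with the term for animal numbers. In the hippocampus 3 of 8 markers of hippocampal neurons fell, Wfs1 (-0.50, adjusted p = 0.000875), Dsp (-0.56) and C1ql2 (-0.45), with sums of 811 to 1220 CPM in controls and 755 to 863 CPM in cKO-/-. The median change of these 8 was -0.10, and Zbtb20 (0.35, adjusted p = 0.313), Neurod6 (0.08) and Fibcd1 (0.07) had values above 0 without being called. With the term for animal numbers, 1 of the 3 calls held. In the cerebellum 6 of 8 meningeal markers rose, among them Col1a2 and Igf2, with sums of 203 to 286 CPM in controls and 286 to 562 CPM in cKO-/-, and 4 of these 6 calls held with the term. In the hippocampus 1 of the 8 was called, Lum (0.46, adjusted p = 0.0321, edgeR), and its call did not hold with the term. The 8 changes there ran from 0.16 to 0.70 with a median of 0.48, and the cerebellar median was 0.40. The hippocampal sums were 71.6 to 351 CPM in controls and 129 to 456 CPM in cKO-/-. Of 8 astrocyte markers, Aqp4 alone rose in the hippocampus (0.35, adjusted p = 0.00388, not called with the term), with sums of 4890 to 6730 CPM in controls and 5200 to 6060 CPM in cKO-/-. In the cerebellum 4 of the 8 rose, Aqp4 (0.33), Gfap (0.52), Gja1 (0.17) and Slc1a2 (0.15), of which 1 held with the term, and the sums were 4980 to 5730 CPM and 5500 to 7220 CPM. Of 7 oligodendrocyte markers none was called in the hippocampus, and Opalin (0.52) and Cnp (0.19) rose in the cerebellum, where the sums were 3730 to 5670 CPM in controls and 4180 to 9010 CPM in cKO-/- and neither call held with the term. The part of these cells in the levels of the members was not tested.

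Over the 17 hippocampal libraries, the 3 genes with the levels most like Card10 were Pogz (Pearson r = 0.93), Reep6 (0.92) and Entpd2 (0.90). Over the 18 cerebellar libraries r was 0.19, 0.08 and 0.22 for these genes. These libraries share the genotype steps. After genotype and sex were removed, the genes most like Card10 over both tissues were Egfl7 (mean r = 0.73), Crip2 (0.70), Fadd (0.69), Eml2 (0.66) and Tmem44 (0.66). These genes were picked as the highest of all genes tested in both tissues, so nothing is read from the size of their r. Egfl7 is known from endothelium, and a part of that cell type was not tested. The residual r with Card9 was 0.69 in the hippocampus and -0.17 in the cerebellum, with Malt1 0.42 and -0.12, and with Bcl10 0.06 and -0.32.

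Genes beside Card10, Bcl10, Card9 and Card14 were examined as 3 on each side, and those beside Malt1 were not. Of all tested genes, 4.44% were called in the hippocampus and 13.7% in the cerebellum. Fits of the neighbours with the term for animal numbers are not given here. Mfng, 1.69 kb from Card10, had a log2 change of 0.01 in both tissues (adjusted p = 0.963 and 0.95, edgeR). Cyth4, 153 kb away, fell by 0.20 in the hippocampus (SE 0.05, adjusted p = 0.0210), and Cdc42ep1, 39.6 kb away on the other side, rose by 0.16 in the cerebellum (SE 0.05, adjusted p = 0.0353). Beside Card9, Gpsm1 and Sdccag3 fell in the cerebellum by 0.18 and 0.21, and beside Card14, Slc26a11 fell there by 0.24 (SE 0.06, adjusted p = 0.0120). No tested neighbour of Bcl10 was called in either tissue.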

How the data were processed

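RNA of hippocampus and cerebellum was sequenced in 18 mice. The authors aligned reads and made the deposited whole-number counts per gene with STAR (version 250a per the labels), without normalisation; strand and multi-mapping rules are not given in the sources used here. The labels name mm9, while positions in the tables are those of GRCm38. Exonic length per gene was deposited beside the counts. Columns matched to no sample: 0.

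The members and lists were chosen with earlier results of these data known. Genes above 1 CPM in at least 6 libraries of a tissue were tested with edgeR 4.0.16 (R 4.3.3; TMM, quasi-likelihood test, legacy form) on sex and number of alleles lost, with Benjamini-Hochberg adjustment over all tested genes at 0.05. CPM values used TMM factors over all 36 libraries, and intervals are 95%. The joint fit held 35 libraries. The hippocampal library of Sample_1160 was left out, since the study excluded 1 outlier RNA sample that it did not name. Card14 passed the filter of the joint fit but not that of the single tissues or of the control libraries, where it was fitted without the filter and, within each tissue, also tested by exact permutation (scipy 1.17.1). The fit was tested on simulated data. Libraries of 1 animal share its number in the labels: over 17 animals the median correlation of their deviations was 0.264 (-0.142 to 0.435). Alternatives were DESeq2 1.42.0, other scaling, filters and terms, and leaving out each animal. Named genes were the members, Pogz, up to 4 called genes per list by smaller p, 5 genes most like Card10 by each measure, and 3 neighbours on each side of Card10, Bcl10, Card9 and Card14; some genes that this rule names are not reported here. The unfiltered joint fit and the alternatives of the unfiltered Card14 fit were chosen after seeing the data.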

Additional observations from a re-analysis of the deposited data

Results flagged for a closer look

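The cKO+/- library of Sample_1120 had 8.24 CPM of Card10 in the hippocampus, set apart from the other 5 of its group. The cKO-/- library of Sample_936 had 7.05 CPM of Card10 in the cerebellum, far above the other 5. The control library of Sample_1129 had 14.2 CPM of Bcl10 in the cerebellum, below the other 5. These 3 stood out among 30 groups of 6 libraries, and chance alone flags about 1 in 20 groups. The change of Card14 per allele differed between the tissues by -0.97 on the log2 scale (adjusted p = 0.0114, edgeR). Card14 entered that test with 6 libraries above 1 CPM, the lowest number accepted, in groups where it was high. Without the filter on low counts, a setting chosen after seeing the data, the difference was -0.96 (adjusted p = 0.0161, edgeR). The difference was no longer called with a term for the animal number range (-0.54, adjusted p = 0.9995, edgeR). The causes were not tested.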

How the results depend on the processing

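The calls of Card9, Bcl10 and Malt1 between control tissues held under each alternative run. For Card14 this difference was fitted without the filter alone. With the animal as a replicate block, the tissue difference of the allele effect was -0.45 for Card10 and -1.01 for Card14 (adjusted p = 0.0393, edgeR). Card14 entered this fit too only through groups in which it was high. The tissue difference was -0.02 for Card9, 0.08 for Bcl10 and 0.14 for Malt1. The control difference was 0.93, 0.70, -0.48 and -0.66 for Card10, Card9, Bcl10 and Malt1. The pairing changed no call of Card9, Card14, Bcl10 or Malt1. The term for animal numbers ended the Card14 calls (-0.52 in the hippocampus, -0.54 for the tissue difference) and turned the sign of 3 uncalled values, cerebellar Bcl10 (0.016), cerebellar Card14 (-0.0012) and the tissue difference of Bcl10 (-0.0031). With all 36 libraries the tissue difference of Card9 turned to 0.046. Leaving out 1 animal gave -0.84 to -0.66 for hippocampal Card14, -0.077 to 0.041 for the tissue difference of Card9 and -0.025 to 0.092 for the hippocampal midpoint of Card10. Genes called in the hippocampus numbered 636, against 1056 by DESeq2, 68 with the term for animal numbers, 246 with all 18 libraries and 286 to 943 with 1 animal left out. In the cerebellum 1916 were called, against 308 with the term and 935 to 2572 with 1 animal left out. For the tissue difference 245 were called, against 461 by DESeq2, 16 with the term and 116 to 468 with 1 animal left out. The causes were not tested. With 3 to 51 counts per hippocampal library, depth limits what can be said of Card14, and intervals for it cover few reads.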
